A study of Homo sapiens with 12 samples.

Results

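The 78 genes described here encode the protein subunits of the mitochondrial ribosome, or mitoribosome. They were taken from a table of 58051 genes as the protein-coding genes whose symbol starts with MRPL (large subunit) or MRPS (small subunit) followed by a digit. By symbol, 49 were MRPL and 29 were MRPS genes. By the place of the protein, 51 belong to the large subunit, 26 to the small subunit and 1, MRPS36, to neither, since its product is now known as a component of the 2-oxoglutarate dehydrogenase complex. MRPS30 and MRPS18A keep small-subunit symbols but lie in the large subunit. The rule used no measured value, but the genes were chosen with earlier results of these data known. Of the 78, 77 had enough counts to be tested.

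The mitoribosome translates the few mRNAs made from mitochondrial DNA, which encode membrane-embedded subunits of the respiratory chain and of ATP synthase. Its ribosomal RNAs are transcribed inside the organelle, whereas every one of its proteins is encoded in the nucleus, made on cytosolic ribosomes and imported. Some of these proteins have counterparts in bacterial ribosomes and others were added during the evolution of mitochondria. Acute myeloid leukaemia cells are known to depend on mitochondrial translation and to be sensitive to tigecycline, an antibiotic that blocks it.

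RNA was sequenced from MV4-11, an established human line of acute myeloid leukaemia with a rearranged KMT2A gene and an FLT3 internal tandem duplication. The cells were exposed for 6 h to BSJ-03-123, YKL-06-102 or palbociclib, each at 200 nM, or to the vehicle DMSO at 0.1%, with 3 libraries in each of the 4 groups. The design text names palbociclib as an inhibitor of CDK4/6, the kinases that drive cells from G1 into S phase, and both code-named compounds as CDK6-specific conjugates that carry a phthalimide. The study set them beside palbociclib, and all 4 groups share the 1 cell line, so what is given here holds for that line and that time only. The labels do not say whether the replicates came from separate cultures. The p-values therefore take in no more than the differences among these libraries, part or all of which may be technical.

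Library totals ran from 18764307 to 25539858 counts, and the 78 genes together took between 0.506% and 0.534% of each library, or 1368716 counts in all. DMSO replicate 2 stood apart from its group. It was the deepest library, it had the lowest share of counts from the mitochondrial chromosome (2.43%, against 3.20% and 3.45% in DMSO replicates 1 and 3 and 2.52% to 3.20% in compound libraries), and it was the highest of the 3 DMSO libraries for 51 of the 77 tested genes. Results against DMSO are therefore given with and without it. The abundance of CDK6 mRNA was slightly higher with BSJ-03-123, YKL-06-102 and palbociclib than with DMSO, with log2 fold changes of 0.19, 0.16 and 0.14, all called by the test used below. Myeloid markers were present (9 of 10, all but CD14, at 0.5 CPM or more, where CPM is the count scaled to library size with TMM factors), with summed CPM of 1643 to 1669.6 in BSJ-03-123, 1826 to 1865 in YKL-06-102, 1668 to 1738 in palbociclib and 1502 to 1584 in DMSO libraries. The 5 T and B cell markers summed to at most 1.76 CPM, and HBB, HBA1 and PF4 of the erythroid and megakaryocyte list were at 0 in DMSO. That list summed to 11.1 to 13.8 CPM over the 12 libraries. The 6 epithelial and stromal markers summed to 161 to 164 CPM in BSJ-03-123, 137 to 144 in YKL-06-102, 165 to 172 in palbociclib and 154 to 155 in DMSO libraries, most of it PECAM1, which leukocytes also express. The part of these marker levels in the results below was not tested. In bulk RNA, fewer cells of a kind and less RNA per cell cannot be told apart.

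In vehicle-treated cells the mitoribosomal genes were expressed well above the typical gene. Levels between genes are compared as CPM divided by the exon length in kilobases. The median of the 77 genes was 24.5 CPM per kb in DMSO, against 4.78 for all tested genes with a length. Large-subunit genes had a median of 28.3 and small-subunit genes 19.7 CPM per kb. The highest was MRPS34, a mitochondria-specific small-subunit protein, at 142 ± 9.69 CPM per kb (SD, n = 3). MRPL18, the counterpart of a bacterial protein that binds ribosomal RNA, followed at 98.7 ± 4.95, MRPL51 at 91.7 ± 4.02 and MRPL15 at 84.0 ± 3.42. The lowest were MRPL46 at 1.27 ± 0.124, MRPL23 at 1.88 ± 0.130, MRPS17 at 3.86 ± 0.422 and MRPL42 at 4.77 ± 0.247. Long annotated transcripts lower this scale for some genes, as for MRPL42, whose exons cover 16393 bases in all.

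MRPS24, a small-subunit protein with a bacterial homologue, was the 1 gene that failed the filter on low counts. It had 29 counts in all and 0 to 4 in a library. Its exons overlap those of the read-through gene URGCP-MRPS24 on the same strand over 606 bases, or 23.2% of its exon length. URGCP-MRPS24 had 0 counts in all. The part of that overlap in the low count of MRPS24 was not tested, so the level of MRPS24 is uncertain.

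The summed output of the gene set differed little between groups. BSJ-03-123 libraries summed to 5239, 5156 and 5022 CPM, YKL-06-102 libraries to 5201, 5114 and 5069 CPM, palbociclib libraries to 5077, 5134 and 5162 CPM, and DMSO libraries to 5252, 5505 and 5154 CPM. The means were 5139 ± 109.6, 5128 ± 67.0, 5124 ± 43.5 and 5304 ± 181 CPM in that order of groups (SD, n = 3 each). DMSO replicate 2 was the highest of all 12, and each compound's range overlapped the DMSO range. For the small-subunit genes alone, the sums were 1746 ± 22.3 CPM in BSJ-03-123, 1739 ± 17.5 in YKL-06-102, 1739 ± 16.6 in palbociclib and 1800.0 ± 35.8 in DMSO libraries. There the YKL-06-102 and palbociclib libraries were all below the DMSO libraries, and 1 BSJ-03-123 library was not. The ratio of large-subunit to small-subunit CPM was 1.93 ± 0.030, 1.94 ± 0.0088, 1.94 ± 0.0029 and 1.94 ± 0.044 in the same order. The balance of the subunits at the mRNA level thus differed by less than the spread between libraries.

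**Figure D1:**
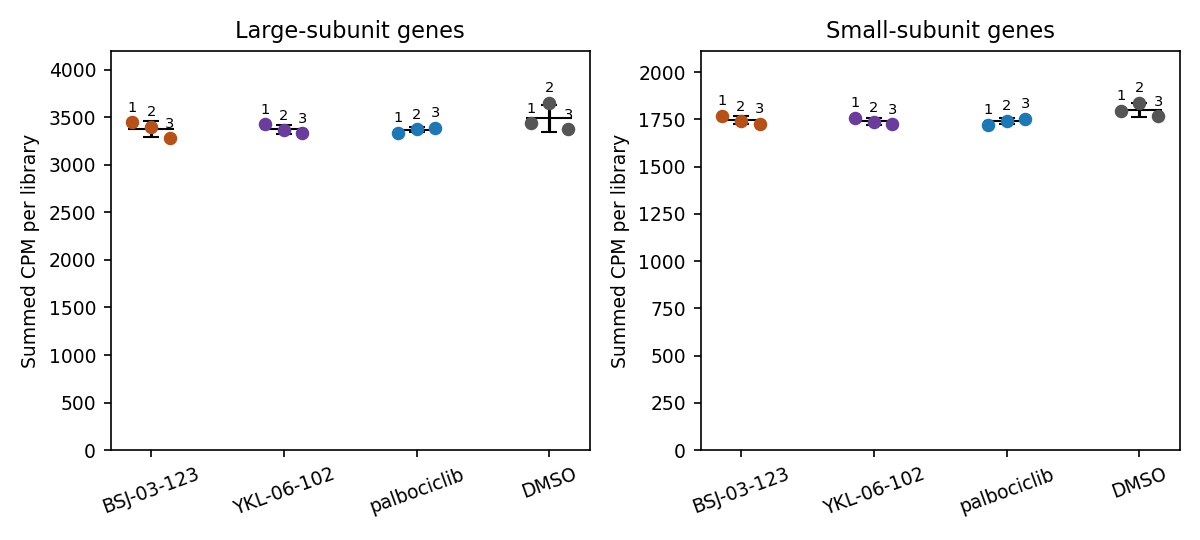
Summed CPM per library (vertical axes, starting at 0) of the large-subunit genes (left) and small-subunit genes (right) for the 4 groups; points are libraries numbered by replicate, and bars are the mean ± SD of 3 libraries. DMSO replicate 2 is the highest point in both plots; each compound overlaps DMSO in the large-subunit plot, and only BSJ-03-123 does in the small-subunit plot.

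Replicates agreed closely for these genes, which set how small a change could be seen. The median coefficient of variation over the 77 genes was 3.87% in BSJ-03-123, 2.73% in YKL-06-102, 2.98% in palbociclib and 4.27% in DMSO libraries. The standard error of a log2 fold change against DMSO had a median of 0.046, 0.045 and 0.045 for BSJ-03-123, YKL-06-102 and palbociclib over the 77 genes, against 0.065, 0.064 and 0.065 over all tested genes. Log2 fold changes as small as -0.11, that of MRPL15 with BSJ-03-123, passed the test described next.

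Against DMSO, mitoribosomal genes that changed mostly fell, by small amounts. Each gene was tested with edgeR's quasi-likelihood test, adjusted by Benjamini-Hochberg over 14214 genes, and a gene is said to be called, or to have risen or fallen, at an adjusted p under 0.05. With BSJ-03-123, 13 of 77 fell and 0 rose, or 16.9% called, where 28.1% of all tested genes were called (15.7% fell). With YKL-06-102, 18 fell and 3 rose, or 27.3%, against a background of 36.9% (21.3% fell). With palbociclib, 11 fell and 1 rose, or 15.6%, against 33.3% (17.6% fell). The share that fell was thus near the background in each comparison, and the share that rose was below the 12.4%, 15.6% and 15.6% of all tested genes. The 3 comparisons share the DMSO libraries and are not independent of each other.

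The split of the calls into higher and lower moved with DMSO replicate 2 and with the scaling. Without that library, 9 fell and 2 rose with BSJ-03-123, 7 fell and 11 rose with YKL-06-102, and 11 fell and 3 rose with palbociclib, where 28.4%, 38.8% and 32.0% of all tested genes were called. When counts were scaled by library totals in place of TMM factors, 8 fell and 5 rose with BSJ-03-123, 11 fell and 8 rose with YKL-06-102, and 8 fell and 6 rose with palbociclib, where 32.5%, 37.3% and 37.6% of all tested genes were called. The median log2 fold change of the 77 genes was -0.027, -0.039 and -0.024 for the 3 compounds, where that of all tested genes was 0.0075, -0.017 and 0.014. It was -0.011, -0.0060 and -0.0068 without DMSO replicate 2, where all genes stood at 0.0070, 0.0023 and 0.0085, and 0.016, -0.0022 and 0.024 under library totals, where all genes stood at 0.051, 0.021 and 0.062. The median of the 77 genes was below that of all tested genes with each compound in these 3 settings, so its change of sign under library totals went with a shift of all genes. Single libraries moved the counts further. Without BSJ-03-123 replicate 3, 7 fell and 1 rose with that compound, where 23.2% of all tested genes were called, and without YKL-06-102 replicate 2, 8 fell and 3 rose with that one, where 32.2% were.

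The changes were narrow in size. Log2 fold changes over the 77 genes ran from -0.35 to 0.12 with BSJ-03-123, from -0.30 to 0.14 with YKL-06-102 and from -0.33 to 0.12 with palbociclib. Their standard deviations were 0.089, 0.094 and 0.094, where those of all tested genes were 0.32, 0.38 and 0.34. The 95% interval lay within a 1.25-fold change in either direction for 71, 74 and 71 of the 77 genes. Libraries of compound and DMSO were fully separated, all below or all above, for 14 and 5 genes (BSJ-03-123), 23 and 5 genes (YKL-06-102) and 19 and 5 genes (palbociclib). Of all tested genes, 19.4% and 17.8%, 25.2% and 19.5%, and 21.1% and 20.7% were so separated.

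**Figure D2:**
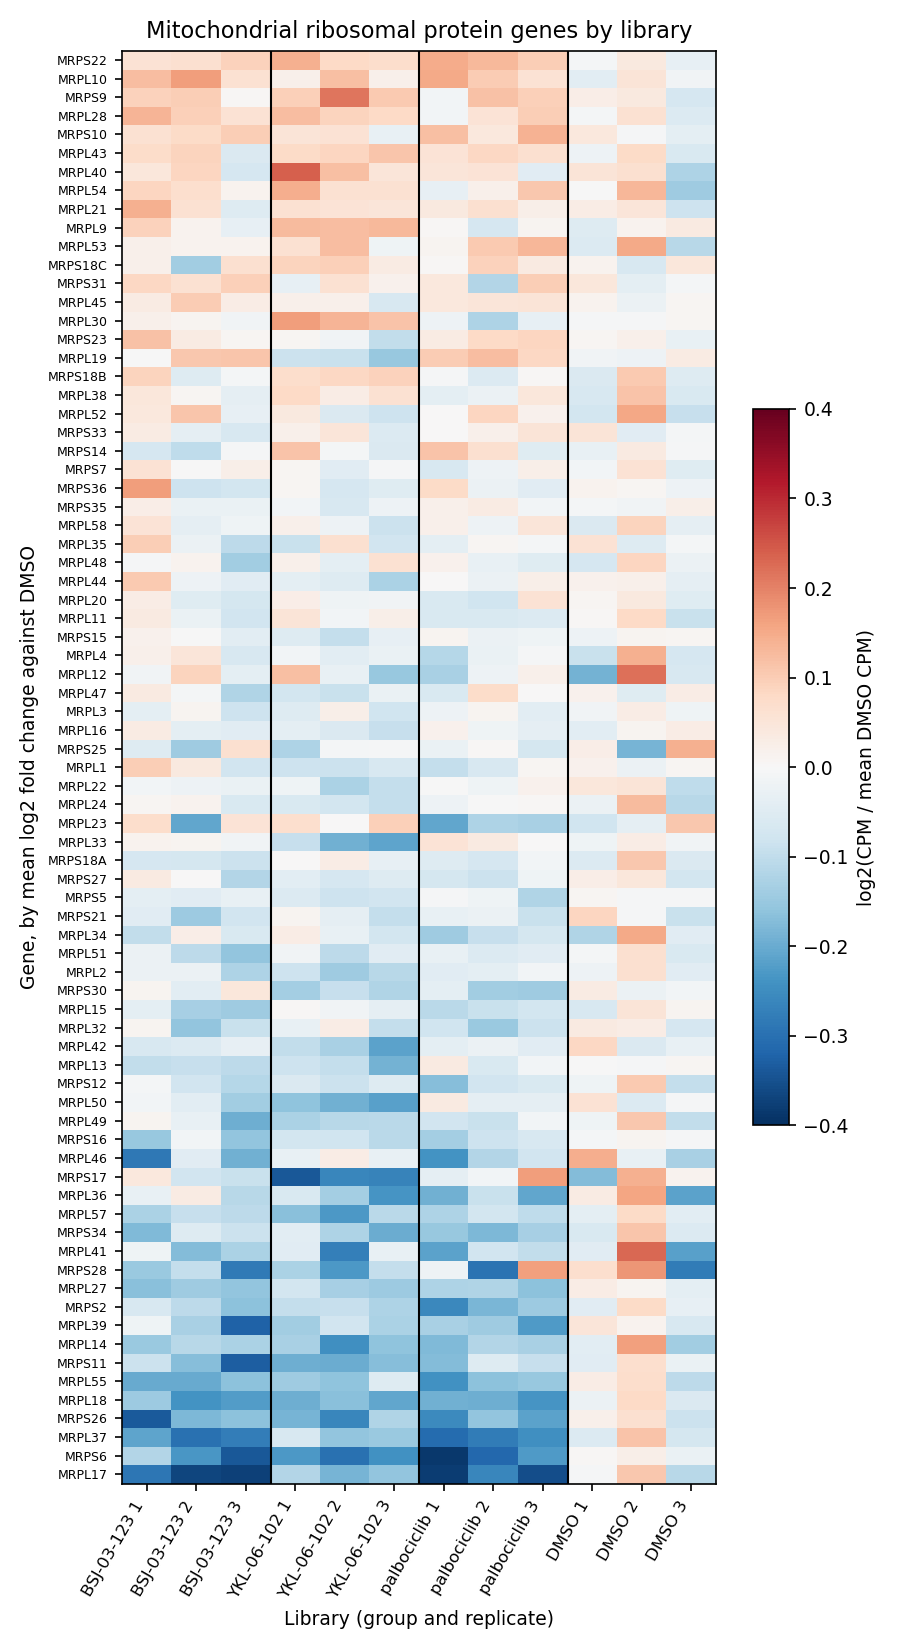
Each line is 1 of the 77 tested genes and each column 1 of the 12 libraries; colour is log2 of the CPM over the mean DMSO CPM, on a scale from -0.4 (blue) to 0.4 (red), and genes are ordered by their mean log2 fold change over the 3 comparisons with DMSO. The lines at the bottom, from MRPL17 to MRPL18, are blue in all 9 compound libraries, and DMSO replicate 2 is the reddest DMSO column for 51 genes.

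Genes that fell came from both subunits and from both evolutionary classes. Of 51 large-subunit genes, 8 fell in the BSJ-03-123 group, 12 in the YKL-06-102 group and 7 in the palbociclib group. Of 25 tested small-subunit genes, 5, 6 and 4 fell. Of 45 tested genes with a bacterial homologue, 9, 12 and 7 fell, and of 31 mitochondria-specific genes, 4, 6 and 4 fell. MRPS36, outside the ribosome, was called in none of these comparisons. In all, 51 of the 77 genes (66.2%) were called with no compound, where 49.9% of all tested genes were called with none.

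**Figure D3:**
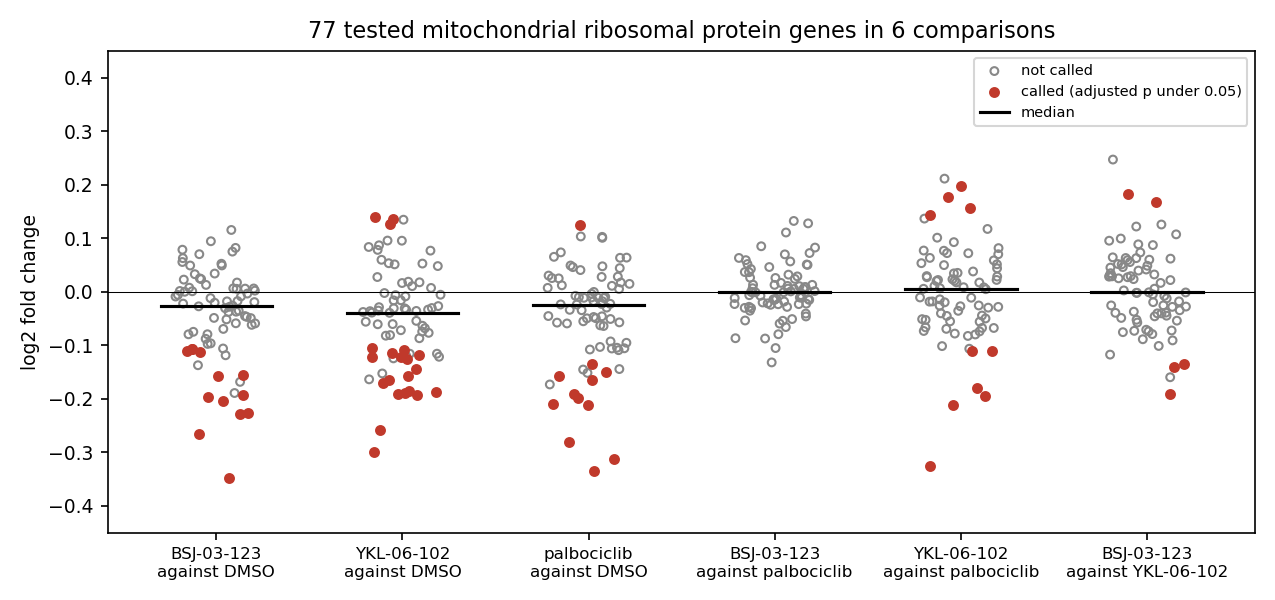
Log2 fold changes (vertical axis) of the 77 tested genes in the 6 comparisons between groups (horizontal axis); filled points are genes called at an adjusted p under 0.05, open points are not called, and the black line is the median. The comparison of BSJ-03-123 with palbociclib holds no filled point, and the medians lie between -0.039 and 0.0056.

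Of the genes that fell, 7 did so with all 3 compounds: MRPL17, MRPS6, MRPL37, MRPS26, MRPL18, MRPL27 and MRPS2. They are 9.09% of the 77 genes, where 11.8% of all tested genes fell with all 3. Under library totals 4 of them (MRPL17, MRPL18, MRPS26 and MRPS6) fell with all 3 compounds, and without DMSO replicate 2 it was 3 of them (MRPL18, MRPS26 and MRPS6). MRPL18 and MRPS6 kept their calls with every compound under every alternative tried. The annotation is GENCODE 29 on GRCh38, and coordinates below span all transcripts of a gene.

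MRPL17 (ENSG00000158042, chr11:6680782-6683401, minus strand) encodes a large-subunit protein with a bacterial homologue, near the exit of the peptide tunnel in bacteria. It measured 74.9, 71.1 and 70.7 CPM in BSJ-03-123 libraries, 84.6, 80.6 and 82.1 CPM in YKL-06-102 libraries and 70.5, 76.5 and 71.7 CPM in palbociclib libraries, against 91.3, 98.8 and 84.8 CPM in DMSO libraries. Every compound library lay below the lowest DMSO library, and the YKL-06-102 libraries lay above those of both other compounds. The log2 fold change was -0.35 (SE 0.047, edgeR adjusted p = 1.14e-06) with BSJ-03-123, the largest fall of the set. It was -0.16 (SE 0.046, edgeR adjusted p = 0.00692) with YKL-06-102 and -0.33 (SE 0.046, edgeR adjusted p = 1.57e-06) with palbociclib. Without DMSO replicate 2 the values were -0.29, -0.076 and -0.27, and the call with YKL-06-102 was lost (edgeR adjusted p = 0.165). It was also lost without YKL-06-102 replicate 2 or replicate 3 (edgeR adjusted p = 0.0797 and 0.0578).

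MRPS6 (ENSG00000243927, chr21:34073224-34143034, plus strand) encodes the counterpart of bacterial S6 in the small subunit. Its CPM was 43.8, 40.4 and 37.6 in BSJ-03-123 libraries, 40.5, 38.6 and 40.2 in YKL-06-102 libraries and 36.4, 38.2 and 40.6 in palbociclib libraries, against 47.7, 48.3 and 46.6 in DMSO libraries. The DMSO libraries were tight and all above the 9 compound libraries, which overlapped among themselves. The log2 fold changes were -0.23, -0.26 and -0.31 for BSJ-03-123, YKL-06-102 and palbociclib (SE 0.052, 0.052 and 0.052; edgeR adjusted p = 0.0013, 0.000193 and 2.62e-05). SLC5A3, a myo-inositol transporter gene, overlaps MRPS6 exons on the same strand over 273 bases, and its log2 fold changes were -0.17, -0.50 and -0.35 in the same order. The part of that overlap in the MRPS6 values was not tested.

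MRPL37 (ENSG00000116221, chr1:54184041-54225464, plus strand) encodes a mitochondria-specific protein of the large subunit. It measured 116, 109 and 111 CPM in BSJ-03-123 libraries, 129, 121 and 122 CPM in YKL-06-102 libraries and 109, 111 and 114 CPM in palbociclib libraries, against 129.7, 146 and 128 CPM in DMSO libraries. BSJ-03-123 and palbociclib libraries lay below all DMSO libraries, whereas 1 YKL-06-102 library lay within the DMSO range. The log2 fold changes were -0.26, -0.13 and -0.28 (SE 0.043, 0.042 and 0.042; edgeR adjusted p = 1.8e-05, 0.0188 and 5.54e-06) for BSJ-03-123, YKL-06-102 and palbociclib. Without DMSO replicate 2 they were -0.20, -0.04 and -0.22, and the call with YKL-06-102 was lost, as it was without YKL-06-102 replicate 2 or replicate 3 (edgeR adjusted p = 0.175 and 0.161). In all, the call with YKL-06-102 held under 6 of 13 alternatives. CYB5RL on the opposite strand shares 140 exonic bases with MRPL37 and had values of -0.40, -0.27 and -0.45. Whether the counting used strand is not given in the sources used here.

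MRPS26 (ENSG00000125901, chr20:3045945-3048254, plus strand) encodes a mitochondria-specific protein of the small subunit. Its CPM was 44.4, 49.5 and 50.0 in BSJ-03-123 libraries, 49.3, 46.8 and 51.6 in YKL-06-102 libraries and 47.0, 50.3 and 48.3 in palbociclib libraries, against 56.8, 58.6 and 52.8 in DMSO libraries. All compound libraries were below all DMSO libraries. The log2 fold changes were -0.23, -0.19 and -0.21 (SE 0.052, 0.051 and 0.051; edgeR adjusted p = 0.00124, 0.00366 and 0.00177) for BSJ-03-123, YKL-06-102 and palbociclib, and -0.19, -0.13 and -0.18 without DMSO replicate 2, all still called. Without YKL-06-102 replicate 2 the call with that compound was lost (-0.14, edgeR adjusted p = 0.0691).

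MRPL18 (ENSG00000112110, chr6:159789812-159798436, plus strand) encodes the counterpart of bacterial L18, a protein of the large subunit that binds ribosomal RNA. It had 123, 115 and 116 CPM in BSJ-03-123 libraries, 119, 121 and 117 CPM in YKL-06-102 libraries and 119, 119 and 115 CPM in palbociclib libraries, against 133, 143 and 130.3 CPM in DMSO libraries. The libraries of the 3 compounds overlapped, and none of them reached the DMSO range. The log2 fold changes were -0.20, -0.19 and -0.21 (SE 0.038, 0.037 and 0.037; edgeR adjusted p = 0.000107, 0.000126 and 5.75e-05), and -0.16, -0.13 and -0.17 without DMSO replicate 2.

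MRPL27 (ENSG00000108826, chr17:50367857-50373214, minus strand) encodes the counterpart of bacterial L27, which lies near the peptidyl transferase centre. MRPL27 and MRPS2 complete the group of 7, and MRPL27 was named after its values were seen. MRPL27 had 49.8, 50.7 and 50.2 CPM with BSJ-03-123, 53.2, 51.1 and 50.6 CPM with YKL-06-102 and 51.4, 51.5 and 49.9 CPM with palbociclib, against 57.1, 56.4 and 54.4 CPM with DMSO. The compound libraries were all below the DMSO libraries, by a small margin. The log2 fold changes were -0.16, -0.12 and -0.14 (edgeR adjusted p = 0.00477, 0.0229 and 0.0115), and the call with YKL-06-102 was lost without DMSO replicate 2 (-0.092, edgeR adjusted p = 0.11). MRPS2 (ENSG00000122140, chr9:135499984-135504673, plus strand), the counterpart of bacterial S2, had 89.0, 86.6 and 83.0 CPM, 87.1, 87.3 and 85.5 CPM and 77.7, 82.0 and 84.2 CPM with the compounds in the same order, against 90.1, 98.0 and 91.0 CPM with DMSO. The 9 compound libraries were below the DMSO libraries, the highest by little. Its log2 fold changes were -0.11, -0.11 and -0.20 (edgeR adjusted p = 0.0386, 0.0408 and 0.000343). The first 2 of these, without DMSO replicate 2, were -0.074 and -0.043 and no longer called.

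**Figure D4:**
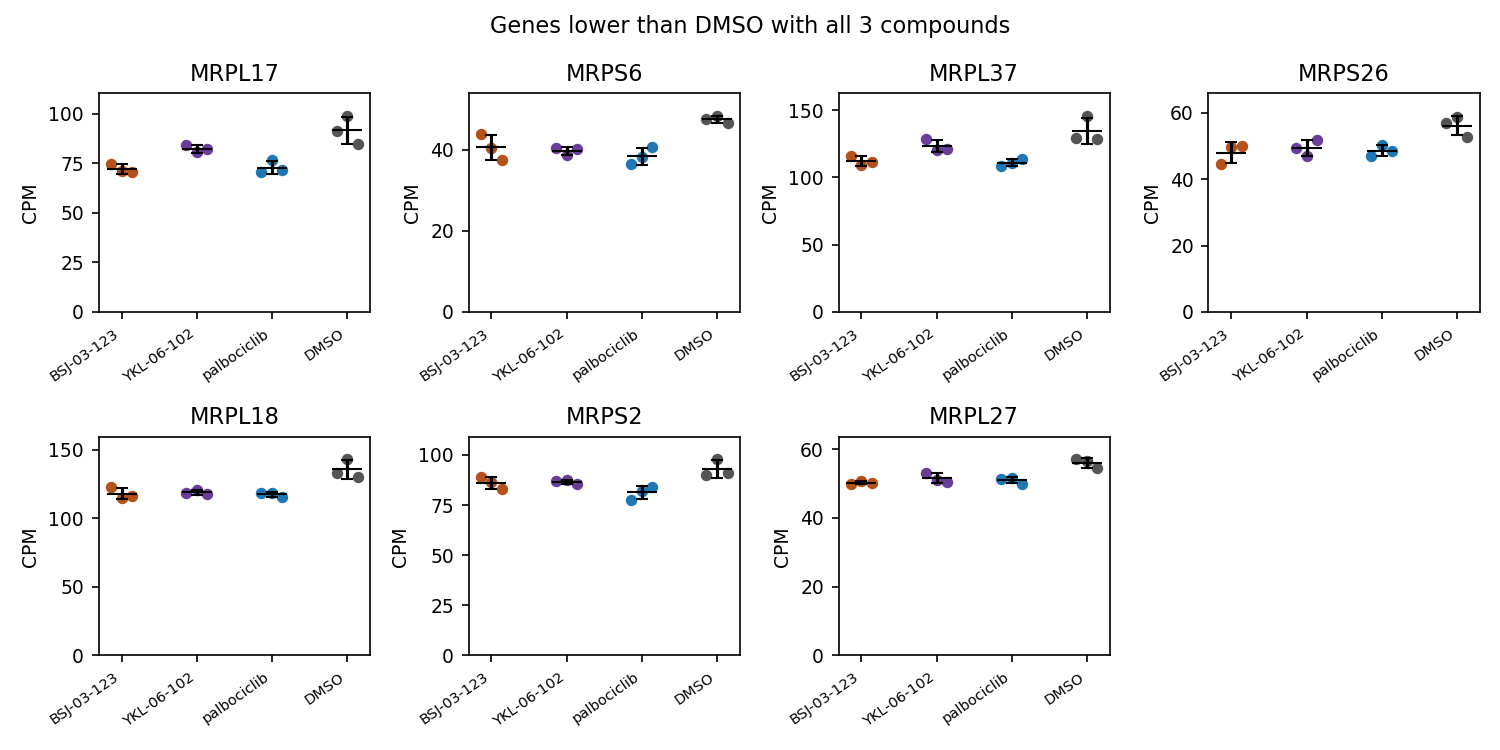
CPM (vertical axes, each starting at 0) of the 7 genes that fell with all 3 compounds, by group; points are the 3 libraries of a group and bars the mean ± SD. All compound libraries lie below all DMSO libraries in every plot except that of MRPL37, where a YKL-06-102 library at 128.8 CPM lies above the lowest DMSO library at 128.3 CPM.

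The promoters of 6 of these genes are shown so that their upstream sequences can be set beside each other, and those of MRPS2 are not shown. The genes were grouped by their calls against the same DMSO libraries, and shared regulation was not tested. Each stretch is the 250 bases before a RefSeq start site (GRCh38.p14), written 5′ to 3′ on the strand of the gene, with matches to 5 searched motifs in capitals. The motifs were NRF1 (GCGCANGCG), ETS factors such as GABPA (CCGGAAG), YY1 (AAGATGG), E2F (TTTCCCGC, TTTGGCGC, TTTGCCGC or TTTCGCGC) and the E-box bound by MYC (CACGTG), each searched on both strands. Except for MRPL18, the GENCODE gene also holds transcripts that start upstream of the site used. The stretches lie at chr11:6683341-6683590, minus strand (MRPL17), chr21:34073328-34073577, plus strand (MRPS6), chr1:54199917-54200166, plus strand (MRPL37), chr20:3045802-3046051, plus strand (MRPS26), chr6:159789562-159789811, plus strand (MRPL18) and chr17:50373185-50373434, minus strand (MRPL27).
MRPL17: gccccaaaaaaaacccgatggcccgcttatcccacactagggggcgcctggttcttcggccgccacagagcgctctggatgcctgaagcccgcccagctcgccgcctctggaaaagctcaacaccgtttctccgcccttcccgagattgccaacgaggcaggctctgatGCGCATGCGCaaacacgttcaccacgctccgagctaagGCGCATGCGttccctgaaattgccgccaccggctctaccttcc
MRPS6: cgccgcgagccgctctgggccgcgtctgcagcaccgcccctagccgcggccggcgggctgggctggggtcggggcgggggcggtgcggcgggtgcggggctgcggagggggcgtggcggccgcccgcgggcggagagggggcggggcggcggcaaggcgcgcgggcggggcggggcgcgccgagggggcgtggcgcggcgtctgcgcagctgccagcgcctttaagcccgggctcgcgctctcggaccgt
MRPL37: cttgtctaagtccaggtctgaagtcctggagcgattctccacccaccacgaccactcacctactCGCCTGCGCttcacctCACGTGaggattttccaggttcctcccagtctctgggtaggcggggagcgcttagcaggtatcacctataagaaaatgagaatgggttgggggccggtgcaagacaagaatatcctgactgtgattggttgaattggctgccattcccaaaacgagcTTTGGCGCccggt
MRPS26: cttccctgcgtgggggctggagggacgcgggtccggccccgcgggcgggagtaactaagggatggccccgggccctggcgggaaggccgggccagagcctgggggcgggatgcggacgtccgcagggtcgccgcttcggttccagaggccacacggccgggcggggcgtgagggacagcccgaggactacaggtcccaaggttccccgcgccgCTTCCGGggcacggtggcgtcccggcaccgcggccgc
MRPL18: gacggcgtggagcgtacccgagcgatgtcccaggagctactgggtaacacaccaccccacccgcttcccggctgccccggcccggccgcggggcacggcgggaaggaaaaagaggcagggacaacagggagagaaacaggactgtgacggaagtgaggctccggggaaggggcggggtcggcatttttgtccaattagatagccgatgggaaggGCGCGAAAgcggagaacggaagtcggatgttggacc
MRPL27: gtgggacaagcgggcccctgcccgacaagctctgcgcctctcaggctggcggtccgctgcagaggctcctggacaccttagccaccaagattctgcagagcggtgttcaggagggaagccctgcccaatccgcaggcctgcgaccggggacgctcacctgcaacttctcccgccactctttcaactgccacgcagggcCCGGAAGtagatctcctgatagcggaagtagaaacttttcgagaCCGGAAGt
Positions are those of the first base of a match counted back from the start site. MRPL17 has NRF1 matches at -81, -80 and -43, of which the first 2 overlap. MRPL37 has an NRF1 match at -186, an E-box at -170 and an E2F match at -13. MRPS26 has an ETS match at -37 and MRPL27 has ETS matches at -52 and -8. MRPL18 has an E2F match at -36, and MRPS6 has none of the 5. In windows not shown, MRPL18 also has an ETS match at -26 and MRPS2 an E-box at -56.

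Over the set, 69 of the 78 genes matched the RefSeq promoter table, with 85 windows. ETS matches stood in 31.8% of the windows of these genes, against 14.8% of the windows of tested genes and 8.52% of all windows in the table. NRF1 matches stood in 17.6%, against 11.6% and 6.56%, and YY1 matches in 12.9%, against 3.70% and 3.70%. E2F matches stood in 8.24%, against 4.18% and 2.79%, and E-boxes in 9.41%, against 8.48% and 6.34%. Of the 10 windows of the 7 genes that fell with all 3 compounds, 3 held an ETS match, 2 an NRF1 match, 3 an E2F match, 2 an E-box and 0 a YY1 match. The 3 E2F windows belong to MRPL37 and MRPL18, since 2 overlapping windows of MRPL18 hold the same match. Of the 54 windows of 45 genes called with no compound, 19 held an ETS match, 9 an NRF1 match, 3 an E2F match, 6 an E-box and 10 a YY1 match. These counts are descriptions of short letter strings and say nothing about binding.

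With YKL-06-102, 7 genes fell and 3 rose that did not pass the test with BSJ-03-123 or palbociclib. Those that fell were MRPS17, MRPL33, MRPL50, MRPL42, MRPL13, MRPL19 and MRPL2, the last named to complete the count. The share of all tested genes called with YKL-06-102 alone was not counted, so these counts are not read as a trait of the mitoribosomal genes. Over all tested genes, too, YKL-06-102 had the most calls (36.9%, against 28.1% with BSJ-03-123 and 33.3% with palbociclib). MRPS17, the counterpart of bacterial S17, had the largest fall, on few counts. It measured 8.58, 7.90 and 7.83 CPM in BSJ-03-123 libraries, 6.59, 6.95 and 6.92 CPM in YKL-06-102 libraries and 8.12, 8.26 and 9.35 CPM in palbociclib libraries, against 7.38, 9.20 and 8.41 CPM in DMSO libraries. The YKL-06-102 libraries were the 3 lowest of the 12. Its log2 fold change with YKL-06-102 was -0.30 (SE 0.097, edgeR adjusted p = 0.016), and -0.19 without DMSO replicate 2, where it was not called (edgeR adjusted p = 0.179). The call was also lost without YKL-06-102 replicate 1 (-0.26, edgeR adjusted p = 0.0787). On the same strand, AC092647.5 shares 471 exonic bases with MRPS17 and NIPSNAP2 shares 112.

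MRPL33 (chr2:27771717-27988087, plus strand), the counterpart of bacterial L33, fell most firmly of these. It had 103, 103 and 101 CPM with BSJ-03-123, 96.1, 89.6 and 88.5 CPM with YKL-06-102 and 106, 105 and 103 CPM with palbociclib, against 101, 105 and 101 CPM with DMSO. All YKL-06-102 libraries lay below the other 9, which overlapped. The log2 fold change with YKL-06-102 was -0.16 (SE 0.037, edgeR adjusted p = 0.000663), and -0.13 without DMSO replicate 2. BABAM2 shares 324 exonic bases on the same strand and had a log2 fold change of 0.028 with YKL-06-102.

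MRPL50, a mitochondria-specific large-subunit protein, measured 40.8, 39.9 and 37.3 CPM in BSJ-03-123 libraries, 36.8, 36.0 and 35.4 CPM in YKL-06-102 libraries and 42.1, 40.1 and 40.2 CPM in palbociclib libraries, against 42.8, 39.6 and 41.0 CPM in DMSO libraries. The YKL-06-102 libraries were again the 3 lowest, with a log2 fold change of -0.19 (SE 0.048, edgeR adjusted p = 0.00278). Values in brackets below are log2 fold changes where no other quantity is named. MRPL42, also mitochondria-specific, had 73.1, 71.5 and 67.4 CPM in YKL-06-102 libraries against 82.8, 75.2 and 76.6 CPM in DMSO libraries (-0.14, edgeR adjusted p = 0.00611). Both kept their calls without DMSO replicate 2. MRPL50 also kept its call when any other YKL-06-102 or DMSO library was left out, whereas MRPL42 did not. MRPL13, MRPL19 and MRPL2, which have bacterial counterparts, gave -0.12, -0.11 and -0.11 (edgeR adjusted p = 0.0172, 0.0406 and 0.0404) and were not called without that library.

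MRPL30, MRPL9 and MRPS9, counterparts of bacterial L30, L9 and S9, rose with YKL-06-102. MRPL30 (chr2:99181079-99197626, plus strand) had 48.9, 48.7 and 47.8 CPM in BSJ-03-123 libraries, 54.2, 53.1 and 52.2 CPM in YKL-06-102 libraries and 47.6, 44.3 and 47.2 CPM in palbociclib libraries, against 48.2, 48.1 and 48.5 CPM in DMSO libraries. The YKL-06-102 libraries were the 3 highest of the 12, and the change was 0.14 (SE 0.042, edgeR adjusted p = 0.00902). MRPL9 had 79.7, 79.4 and 79.8 CPM in YKL-06-102 libraries against 70.4, 73.7 and 74.7 CPM in DMSO libraries (0.13, edgeR adjusted p = 0.0131). MRPS9 had 34.9, 37.9 and 35.1 CPM in YKL-06-102 libraries against 33.3, 33.6 and 31.2 CPM in DMSO libraries (0.14, edgeR adjusted p = 0.0432). All 3 kept their calls without DMSO replicate 2. Without DMSO replicate 1, MRPL9 (edgeR adjusted p = 0.0883) and MRPS9 (edgeR adjusted p = 0.0636) lost theirs, and MRPS9 also did without DMSO replicate 3 or YKL-06-102 replicate 2 (edgeR adjusted p = 0.176 and 0.135). With DMSO replicate 2 left out, another 8 genes rose, with log2 fold changes up to 0.19 for MRPL40 and 0.18 for MRPL54, named after their values were seen.

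With palbociclib the 1 gene that rose was MRPS22, a mitochondria-specific small-subunit protein. It measured 55.0, 55.2 and 56.3 CPM in BSJ-03-123 libraries, 58.2, 55.8 and 55.4 CPM in YKL-06-102 libraries and 58.5, 57.7 and 56.5 CPM in palbociclib libraries, against 52.5, 54.3 and 51.6 CPM in DMSO libraries. All 9 compound libraries were above all DMSO libraries, and the test was passed with palbociclib (0.12, SE 0.041, edgeR adjusted p = 0.02), where the values were 0.07 with BSJ-03-123 and 0.10 with YKL-06-102. The call was lost without DMSO replicate 1 or 3 or without palbociclib replicate 1 or 2 (edgeR adjusted p = 0.0725, 0.0863, 0.0893 and 0.0657). COPB2 on the opposite strand shares 86 exonic bases, has 65776 counts in all and had log2 fold changes of 0.10, 0.055 and 0.18 with BSJ-03-123, YKL-06-102 and palbociclib.

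The other calls against DMSO fell on 8 genes. MRPS11, the counterpart of bacterial S11, had 39.3, 37.0 and 33.2 CPM in BSJ-03-123 libraries, 36.4, 36.3 and 37.1 CPM in YKL-06-102 libraries and 37.0, 40.2 and 39.1 CPM in palbociclib libraries, against 40.4, 43.7 and 40.9 CPM in DMSO libraries. All 9 lay below DMSO, and the calls were passed with BSJ-03-123 (-0.20, edgeR adjusted p = 0.0077) and YKL-06-102 (-0.19, edgeR adjusted p = 0.00576). The first was lost without BSJ-03-123 replicate 3 (edgeR adjusted p = 0.0824) and the other without DMSO replicate 2 (edgeR adjusted p = 0.0641). The remaining 7 were MRPL57, MRPL55, MRPL39, MRPS34, MRPL14, MRPL15 and MRPS16, all but MRPS34 and MRPL15 named after their values were seen. MRPL57 fell with BSJ-03-123 (-0.11) and YKL-06-102 (-0.17). MRPL55 fell with BSJ-03-123 (-0.19) and palbociclib (-0.19), as did MRPL39 (-0.15 and -0.17). MRPS34 fell with YKL-06-102 (-0.12) and palbociclib (-0.16), as did MRPL14 (-0.19 and -0.15). MRPL15 (-0.11) and MRPS16 (-0.11) fell with BSJ-03-123 alone. Of the calls on these 8 genes, those of MRPL57 with YKL-06-102, MRPL55 with BSJ-03-123 and palbociclib, and MRPS34 with palbociclib held under every alternative tried. Whether a gene differed between compounds is answered only by the direct comparisons that follow.

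Between BSJ-03-123 and palbociclib, at the same dose and time, no mitoribosomal gene passed the test. The count was 0 of 77 with edgeR, 0 with DESeq2 and 0 with limma-voom, with 3 genes at an unadjusted p under 0.05, where 0.155% of all tested genes were called. The median log2 fold change was -0.0010, and the range ran from -0.13 to 0.13. The 95% interval lay within a 1.25-fold change for 75 of the 77 genes. The exceptions were MRPL23 (-0.094 to 0.36) and MRPS28 (-0.36 to 0.10), both named after their values were seen. The smallest p-values were those of MRPS30 (0.11, edgeR adjusted p = 0.518), MRPL13 (-0.087, edgeR adjusted p = 0.577) and MRPS2 (0.085, edgeR adjusted p = 0.586).

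YKL-06-102 differed from palbociclib at 10 genes, of which 4 were higher and 6 lower with YKL-06-102 (13.0%, against 24.7% of all tested genes, 12.7% higher and 11.9% lower). Adjusted over the 3 pairs of compounds together, 4 were higher and 4 lower, and MRPL13 (edgeR adjusted p = 0.0616) and MRPL42 (edgeR adjusted p = 0.0716) were lost. Higher with YKL-06-102 were MRPL30 (0.20), MRPL17 (0.18), MRPL37 (0.16) and MRPL9 (0.14). Lower were MRPS17 (-0.33), MRPL19 (-0.21), MRPL33 (-0.20) and MRPL50 (-0.18), with edgeR adjusted p over the 3 pairs of 0.0183, 0.000348, 0.000245 and 0.0092. MRPL19 had 58.8, 58.5 and 56.1 CPM in YKL-06-102 libraries against 66.9, 67.8 and 66.0 CPM in palbociclib libraries, with 61.7, 61.4 and 63.8 CPM in DMSO libraries between them. MRPS17 lost this call without YKL-06-102 replicate 1 or palbociclib replicate 3 (edgeR adjusted p = 0.0714 and 0.0757), and MRPL50 without YKL-06-102 replicate 3 or palbociclib replicate 1 (edgeR adjusted p = 0.0664 and 0.0875). The calls of MRPL13 and MRPL42 were lost whichever of the 6 libraries was left out. MRPL17 and MRPL37 were the genes that fell less with YKL-06-102, as their values above show.

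BSJ-03-123 differed from YKL-06-102 at 5 genes, all large-subunit genes (6.49%, against 20.1% of all tested genes, 9.74% higher and 10.4% lower), and all 5 kept the call after adjustment over the 3 pairs. MRPL19 (0.18, edgeR adjusted p = 0.00196) and MRPL33 (0.17, edgeR adjusted p = 0.0016) were higher with BSJ-03-123. MRPL17 (-0.19, edgeR adjusted p = 0.00459), MRPL37 (-0.14, edgeR adjusted p = 0.0242) and MRPL30 (-0.13, edgeR adjusted p = 0.0285) were lower with it. MRPL37 lost the call without BSJ-03-123 replicate 2 or 3 or YKL-06-102 replicate 1 (edgeR adjusted p = 0.0827, 0.0598 and 0.0619), and MRPL30 without BSJ-03-123 replicate 3 (edgeR adjusted p = 0.0716). MRPL19 had 62.2, 67.2 and 67.3 CPM in BSJ-03-123 libraries, all above the 58.8, 58.5 and 56.1 CPM of YKL-06-102 libraries. The 95% interval of the difference lay within a 1.25-fold change for 73 of the 77 genes between YKL-06-102 and palbociclib and for 75 between BSJ-03-123 and YKL-06-102. None of these comparisons uses the DMSO libraries for its means.

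The rest of the mitochondrial translation pathway was followed with lists of its other genes. For the counts that follow with all libraries and TMM factors, the background is the share of all tested genes. It was 15.7%, 21.3% and 17.6% that fell and 12.4%, 15.6% and 15.6% that rose for BSJ-03-123, YKL-06-102 and palbociclib. For counts without DMSO replicate 2 or under library totals, no background by direction is given. The shares of all tested genes called in either direction in those settings stand above. Of the regulators of nuclear genes for mitochondria, 8 were tested and 0 rose, except for 1 in the palbociclib group under library totals. In the BSJ-03-123 group 4 of them fell, in the YKL-06-102 group 6 and in the palbociclib group 4, and the counts were 4, 5 and 6 without DMSO replicate 2 and 2, 5 and 4 under library totals. NRF1, a transcription factor of such genes, had log2 fold changes of -0.19, -0.30 and -0.27 with BSJ-03-123, YKL-06-102 and palbociclib (edgeR adjusted p = 0.0177, 0.00014 and 0.000563). GABPB1, the partner of the ETS factor GABPA, had -0.20, -0.21 and -0.26, and the coactivator PPRC1 -0.24, -0.26 and -0.36. YY1 fell by less, with -0.10, -0.14 and -0.14. All 4 genes passed the test with each compound, also without DMSO replicate 2. Under library totals NRF1 and YY1 lost the call with BSJ-03-123. MYC passed it with YKL-06-102 only (-0.10) and lost the call without that library (-0.037) and under library totals.

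Of 25 assembly factors, which fold, modify and join the mitoribosomal subunits, 4 fell and 0 rose with BSJ-03-123, 7 fell and 0 rose with YKL-06-102, and 4 fell and 1 rose with palbociclib. Without DMSO replicate 2, 2 fell with BSJ-03-123, 5 fell and 3 rose with YKL-06-102, and 3 fell and 3 rose with palbociclib. Under library totals the calls of this list were split, with 2, 4 and 4 lower and 3, 1 and 4 higher. MTERF3, which acts in large-subunit biogenesis, fell with each compound (-0.33, -0.26 and -0.32), and so did MRM2, a methyltransferase of the large-subunit rRNA (-0.18, -0.16 and -0.15). Both kept these calls without that library and under library totals. Of the 5 mitoribosomal proteins under other symbols, 2, 1 and 1 fell with BSJ-03-123, YKL-06-102 and palbociclib, and none of the calls of GADD45GIP1 (-0.14, -0.17 and -0.18) held without DMSO replicate 2. In that setting 2, 1 and 0 of the 5 fell and 0, 1 and 0 rose, and under library totals 0, 1 and 1 fell and 0 rose.

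Of 15 translation factors 0 fell with any compound, and 0, 1 and 2 rose with BSJ-03-123, YKL-06-102 and palbociclib. The 1 with YKL-06-102 was MTFMT, which formylates the initiator tRNA (0.51, edgeR adjusted p = 0.00265). MTFMT measured 4.05 ± 0.515 CPM (SD) in DMSO libraries, so its change rests on few counts. Of 20 mitochondrial aminoacyl-tRNA synthetases, 2 rose and 2 fell with BSJ-03-123, 4 rose and 2 fell with YKL-06-102, and 4 rose and 3 fell with palbociclib. Of 19 genes that transcribe, process and maintain mitochondrial DNA and RNA, 3, 4 and 2 fell and 1, 0 and 2 rose. The largest falls there were those of MGME1, a nuclease of mitochondrial DNA replication (-0.68, -0.54 and -0.75). TFAM, which packages mitochondrial DNA and starts its transcription, also fell (-0.26, -0.31 and -0.25). Without DMSO replicate 2, MGME1 and TFAM kept all their calls, as they did under library totals. In that setting 0, 2 and 1 translation factors rose, 2, 4 and 5 synthetases rose and 1, 2 and 3 fell, and 0, 2 and 1 genes of the last list rose and 3, 4 and 2 fell. Under library totals 0, 0 and 0 translation factors fell and 2, 3 and 5 rose, 1, 2 and 1 synthetases fell and 6, 4 and 6 rose, and 2, 3 and 2 genes of the last list fell and 3, 0 and 3 rose.

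Calls among the mRNAs that the mitoribosome translates turned on DMSO replicate 2. With all libraries, 2, 1 and 1 of the 13 mitochondrially encoded mRNAs fell with BSJ-03-123, YKL-06-102 and palbociclib, with median log2 fold changes of -0.17, -0.089 and -0.11. Without that library, whose mitochondrial share was the lowest of its group, 13, 11 and 12 fell, with medians of -0.30, -0.23 and -0.24. MT-ND6, the 1 of them encoded on the light strand, fell in both settings (-0.54, -0.61 and -0.45 with all libraries). Under library totals 1, 1 and 1 fell. None of the 13 rose in these settings. The libraries were made from polyadenylated RNA.

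For scale, the same counts were made for 2 other large sets of constantly expressed genes. Of 86 cytosolic ribosomal protein genes, 4 fell and 1 rose with BSJ-03-123, 2 fell and 2 rose with YKL-06-102, and 4 fell and 6 rose with palbociclib. Without DMSO replicate 2, 12, 31 and 17 of them rose and 4, 3 and 2 fell, and under library totals 9, 15 and 22 rose and 1, 2 and 1 fell. Of 75 nuclear genes for respiratory chain subunits, 4, 2 and 4 fell and 1, 3 and 3 rose, and without that library 4, 2 and 3 fell and 3, 10 and 4 rose. Under library totals 2, 2 and 2 of the 75 fell and 5, 6 and 14 rose. The difference of these sets from the mitoribosomal genes was not tested.

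**Figure D5:**
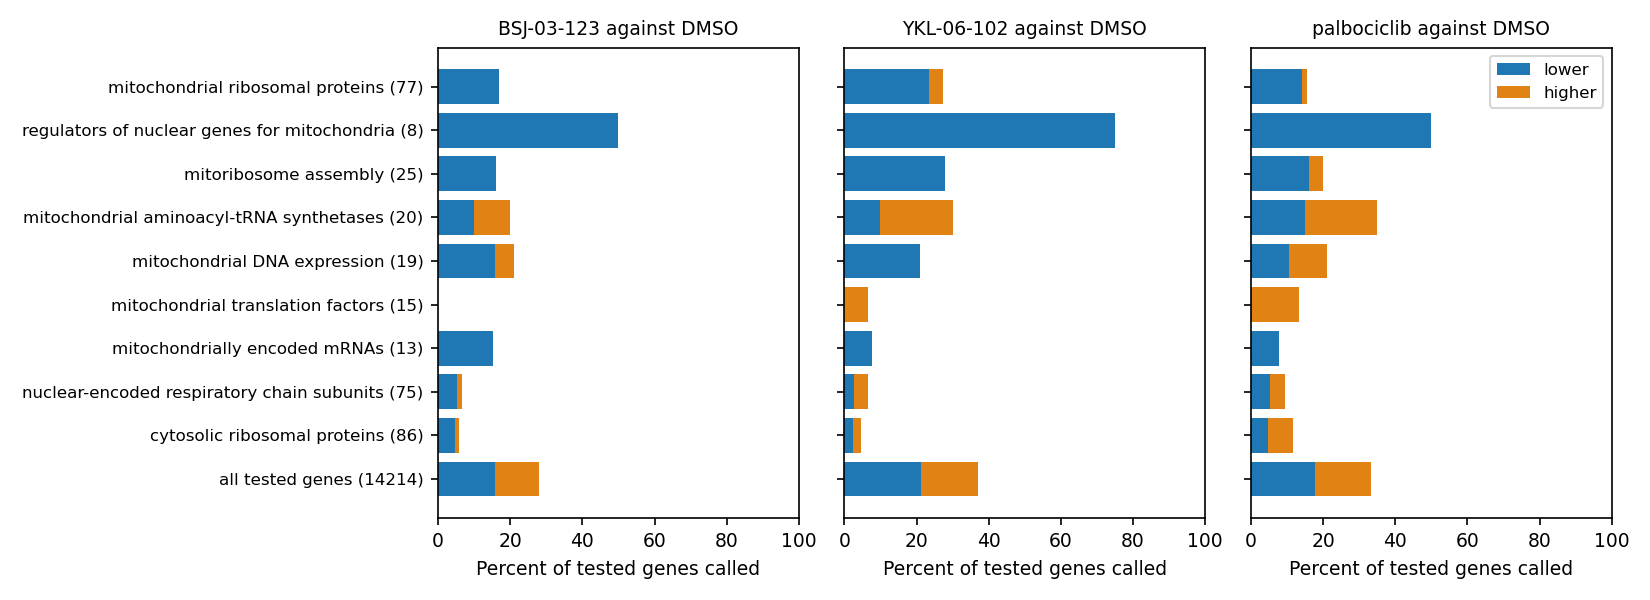
Percent of tested genes called against DMSO (horizontal axes, 0 to 100) that fell (blue) or rose (orange) with BSJ-03-123 (left), YKL-06-102 (middle) and palbociclib (right), with all libraries, for the mitoribosomal genes, 8 other lists and all tested genes; numbers in brackets are genes tested. The mitoribosomal bars (16.9%, 27.3% and 15.6%) are shorter than the bars of all tested genes (28.1%, 36.9% and 33.3%).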

How the data were processed

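RNA of MV4-11 cells (12 libraries, 4 groups) was prepared with a stranded kit for polyadenylated mRNA, per the labels' protocols. Reads were processed with Trimmomatic 0.36, STAR 2.5.2b and HTSeq (version not given in the sources used here) on hg38, per the submitters' processing notes. The authors deposited raw counts per gene. Neither the strand setting nor the handling of reads that match several places is stated there, so values of genes with overlapping partners (41 of the 78 overlap exons of another gene) or pseudogenes are uncertain.

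Of 58051 gene IDs, 57447 were named from GENCODE 29. The members and lists were chosen with earlier results of these data known. Counts were fitted in 1 model of the 4 groups with edgeR 4.0.16 (R 4.3.3): filterByExpr (minimum count 10, minimum total 15), TMM factors, glmQLFit and glmQLFTest, 2-sided, Benjamini-Hochberg adjustment over the 14214 tested genes (99.9% of counts), called at an adjusted p under 0.05. The common biological coefficient of variation was 3.08%, on 8 residual degrees of freedom. CPM used TMM-scaled totals. The code was tested on simulated data. Alternatives were library totals, no filter on low counts, DESeq2 1.42.0, limma-voom (limma 3.58.1), only the 2 groups compared, a replicate block and each library left out; the settings for the other lists were added after seeing the data. Between compounds, p-values were also adjusted over the 3 pairs.

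Named members were, by rule, up to 6 genes each way per comparison that were called with fully separated libraries, those called in all 3 comparisons (4 by size), those called between compounds or else the 3 with the smallest p, and the 4 highest and 4 lowest by level. Of each other list, up to 4 called genes per comparison with the smallest p could be named. The deviations of same-numbered libraries of different groups had correlations of -0.090 to 0.16. Those of differently numbered libraries ran from -0.15 to 0.13. The same-numbered pairs of DMSO and BSJ-03-123 were all positive (0.056, 0.16 and 0.14). As no pairing held across the groups, replicate numbers were not treated as pairs in the main fit.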

Additional observations from a re-analysis of the deposited data

Results flagged for a closer look

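Reads were also counted on non-coding genes of the family, which the comparisons above do not use. The table holds 77 further symbols of the family that are not protein-coding, 75 of them pseudogenes, of which 54 had no count in any library. The 77 took 1012 counts in all, most of them on 3 unprocessed pseudogenes. MRPL45P2 had 351 counts over the 12 libraries, with 84 in BSJ-03-123, 80 in YKL-06-102, 113 in palbociclib and 74 in DMSO libraries. MRPS31P4 had 261 counts, with 51, 62, 65 and 83 in the same order of groups. MRPS31P5 had 165 counts, with 44, 46, 49 and 26. Whether these reads came from the pseudogenes or from near-identical parts of MRPL45 and MRPS31 was not tested.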

How the results depend on the processing

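The number of mitoribosomal genes called against DMSO was 13 for BSJ-03-123, 21 for YKL-06-102 and 12 for palbociclib. With BSJ-03-123 it was 8 without the filter on low counts, 8 with DESeq2 and 8 when only BSJ-03-123 and DMSO libraries were fitted, and with YKL-06-102 it was 12 with DESeq2. Leaving out 1 library at a time gave 8 to 19 calls for BSJ-03-123, 11 to 26 for YKL-06-102 and 11 to 16 for palbociclib. Between compounds it gave 0 to 0 (BSJ-03-123 against palbociclib), 7 to 8 (YKL-06-102 against palbociclib) and 4 to 7 (BSJ-03-123 against YKL-06-102). With the replicate number as a block the counts were 13, 21 and 13 against DMSO and 0, 10 and 5 between compounds. Since same-numbered libraries did not pair across all groups, that fit is given for completeness. With all libraries and TMM factors, 28.1%, 36.9% and 33.3% of all tested genes were called against DMSO. That share moved with the setting, as given above, and is not set beside each of these counts. The counts alone therefore do not tell a change in the members from a change over all genes. Of the named results, 495 values under alternatives kept their side of the threshold, 51 lost the call and 0 reversed. The calls that held under every alternative were 7 of 13, 6 of 21 and 8 of 12 against DMSO, and 6 of 10 and 3 of 5 between compounds. MRPS24 had too few counts to be tested, so no difference in it was detectable from these counts.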
